A study of Mus musculus with 6 samples.

Results

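The 8 genes described here encode subunits of voltage-gated sodium channels, the membrane proteins that carry the inward sodium current of the action potential. They are the pore-forming alpha subunits Scn1a (Nav1.1), Scn2a1 (Nav1.2), Scn3a (Nav1.3), Scn8a (Nav1.6) and Scn9a (Nav1.7), and the auxiliary beta subunits Scn2b (beta2), Scn3b (beta3) and Scn4b (beta4). The members were picked by gene family from results in which the difference between optic nerve crush and sham retinas was already known, so their differences between the 2 groups are given as a description, without a test. They are 8 of the 35485 genes listed in each of the 6 tables, and all 8 had an average RPKM above 0.3 in 1 or both groups, as did 13670 genes in all. RPKM is the number of exon reads divided by exon length and by the sample's reads on all genes, so levels of genes can be compared per length.

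The samples were retinas of 12-week-old wild-type C57BL/6 mice, taken 2 days after surgery. In the optic nerve crush (ONC) group the nerve was pinched with forceps 2 mm behind the eye for 10 seconds, and in the sham group the nerve was exposed but left uncrushed. Each group held 3 samples, and each sample was a pool of RNA from 6 retinas of 6 mice, so a p-value below measures the spread between pools and not between animals. The retina is a mixture of cell types, and only the retinal ganglion cells (RGCs) send axons through the optic nerve.

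An alpha subunit holds the whole ion pore, whereas a beta subunit is a single-pass membrane protein with an immunoglobulin-like domain that modifies gating, surface density and cell adhesion. Beta3 associates without a covalent bond, and beta2 and beta4 are linked to the alpha subunit by a disulfide bridge. In RGCs sodium channels are concentrated at the axon initial segment, where the spike starts, and again at the nodes of Ranvier of the myelinated optic nerve. Nav1.6 is the main alpha subunit of mature initial segments and nodes, Nav1.2 occupies immature nodes and unmyelinated axon, Nav1.1 lies in the proximal part of the initial segment of many neurons, and Nav1.3 is best known from embryonic neurons. The beta4 subunit is known for its cytoplasmic tail, which can block the open pore and give rise to resurgent current.

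The coordinates in the tables matched those of the RefSeq annotation of GRCm38.p6, apart from the start or end of some genes, although the processing notes name mm9. In them, 4 of the 5 alpha members (Scn3a, Scn2a1, Scn1a and Scn9a) and the related gene Scn7a lie within 1328 kb of chromosome 2 (start 65457118, end 66784910), while Scn8a lies on chromosome 15 (start 100870683, end 101045929). All 3 beta members lie on chromosome 9, Scn3b at 40269216 to 40291618, Scn2b at 45117876 to 45130070 and Scn4b at 45139042 to 45154061. Scn2b and Scn4b are separated by 8.97 kb with 0 genes wholly between them. Because the differences below were largest for Scn4b, Scn1a and Scn2b, the 250 bases before the RefSeq start of each of these genes are printed (GRCm38.p6, 5′ to 3′ on the strand of the gene), with every CG dinucleotide in capitals.
Scn1a, chr2:66440838-66441087, minus strand: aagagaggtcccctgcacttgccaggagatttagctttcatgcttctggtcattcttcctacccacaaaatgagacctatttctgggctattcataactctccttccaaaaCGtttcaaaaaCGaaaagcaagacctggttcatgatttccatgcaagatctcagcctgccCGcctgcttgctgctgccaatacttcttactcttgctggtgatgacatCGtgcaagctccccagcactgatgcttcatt
Scn2b, chr9:45117626-45117875, plus strand: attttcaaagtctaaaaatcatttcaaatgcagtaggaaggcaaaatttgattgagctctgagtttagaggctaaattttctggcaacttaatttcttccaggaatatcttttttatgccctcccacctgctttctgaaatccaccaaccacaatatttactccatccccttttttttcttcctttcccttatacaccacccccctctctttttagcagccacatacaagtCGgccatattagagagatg
Scn4b, chr9:45138374-45138623, plus strand: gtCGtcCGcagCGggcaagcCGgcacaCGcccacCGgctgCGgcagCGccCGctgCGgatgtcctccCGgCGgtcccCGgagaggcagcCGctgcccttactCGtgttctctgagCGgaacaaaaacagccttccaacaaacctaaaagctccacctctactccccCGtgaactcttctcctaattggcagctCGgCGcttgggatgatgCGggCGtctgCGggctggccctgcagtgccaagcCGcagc

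The promoters of the chromosome 9 neighbors were unlike in base composition. The Scn4b sequence held 23 CG dinucleotides and 66% G or C, and the Scn2b sequence held 1 CG dinucleotide and 38.4% G or C. The Scn1a sequence held 4 CG dinucleotides and 46.8% G or C, beside medians of 6 CG dinucleotides and 52.4% over 32851 mouse promoters of the same length. On both strands, TATAAA (the TATA box) and GGGCGG (the GC box) had 0 matches in the 3 sequences, while 12.4% and 32.7% of all promoters held them. CANNTG (the E-box) matched at 1 position in Scn1a, 2 in Scn2b and 0 in Scn4b, and was present in 66.2% of all promoters. The Scn4b entry in the tables starts 418 bases downstream of the RefSeq start, the Scn8a entry 820 bases and the Scn2a1 entry 49681 bases. RefSeq promoters were found for 6 of the 8 members.

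The samples held 17343945 to 18349331 exon reads in the sham group and 20019818 to 20358008 in the ONC group. The share of reads on genes that fell in exons was 70.9 to 76.6% in sham and 78.5 to 80.4% in ONC samples. Since RPKM was divided by exon and intron reads together, it sits higher in ONC samples, and fold changes were therefore taken from exon reads after TMM scaling (trimmed mean of M-values). With TMM the median log2 fold change of all 13670 genes was 0.01, and with scaling by all reads on genes it was 0.13. Sham sample 1 stood apart in 2 genes that respond to injury, with 24 exon reads of Sprr1a and 90 of Mmp12 against at most 3 and 14 in the other sham samples and at least 223 and 657 in ONC samples. The members' differences without this sample are given beside those with it.

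Scn1a encodes Nav1.1, and it had the highest RPKM of the 8 members in sham retina and the largest difference among the alpha members. Its RPKM was 9.95, 11.1 and 9.67 in sham samples 1 to 3 and 6.08, 6.47 and 6.76 in ONC samples 1 to 3. The groups did not overlap, and the highest ONC sample was below the lowest sham sample by a wide margin relative to either group's spread. The group means were 10.2 ± 0.757 and 6.44 ± 0.341 RPKM (SD, n = 3), and the log2 fold change was -0.79 with a standard error of 0.07, a 1.73-fold lower level in ONC. Without sham sample 1 the log2 fold change was -0.84. The summed RPKM of 12 RGC markers was 488 to 515 in the same sham samples and 360 to 375 in the ONC samples, and in RNA of whole retina fewer RGCs and less RNA per RGC cannot be told apart. Intron reads of Scn1a, 279, 289 and 277 in sham and 163, 196 and 273 in ONC samples, overlapped between the groups once scaled to each library's intron reads, at 38.8 to 51.6 per 1000000 in sham and 32.0 to 48.9 in ONC samples. That log2 fold change was -0.22. It is not on the scale of the exon value, because intron reads were a smaller share of the reads on genes in ONC samples. Unscaled, the intron reads were lower in every ONC sample. With exon and intron reads counted together after TMM scaling, the log2 fold change was -0.73.

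Scn8a encodes Nav1.6, and it was the second most abundant alpha member in sham samples. Its RPKM was 8.47, 9.76 and 7.80 in sham and 7.07, 7.80 and 7.67 in ONC samples. On the RPKM scale the nearest samples of the 2 groups were equal to 3 digits. In CPM (exon reads after TMM scaling, as a share of the library) the groups were apart, with 127 to 146 in sham and 103 to 109 in ONC samples, and the log2 fold change was -0.33 (standard error 0.07; -0.37 without sham sample 1). Scn8a had the most intron reads of the members, 21.4 to 32.0% of its reads on the gene.

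Scn2a1 encodes Nav1.2. Its RPKM was 5.55, 6.01 and 4.82 in sham and 5.35, 4.99 and 5.31 in ONC samples, so the groups overlapped on that scale. In CPM the ONC samples (52.7 to 59.4) were just below the sham samples (60.4 to 68.8), and the log2 fold change was -0.18 (standard error 0.08; -0.20 without sham sample 1).

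Scn3a encodes Nav1.3, and here the groups overlapped on both scales. Its RPKM was 2.34, 2.62 and 2.47 in sham and 2.81, 2.40 and 2.56 in ONC samples. The log2 fold change was -0.06 with a standard error of 0.11 (-0.12 without sham sample 1), and it took the opposite sign, 0.06, when samples were scaled by all reads on genes.

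Scn9a encodes Nav1.7, best known from peripheral sensory neurons, and it was the only member whose ONC samples were all higher. Its RPKM was 0.532, 0.570 and 0.354 in sham and 0.592, 0.622 and 0.727 in ONC samples. The log2 fold change was 0.30 with a standard error of 0.20 (0.35 without sham sample 1). The depth behind it was small, with 85 to 134 exon reads in sham and 147 to 185 in ONC samples, of which 27.1 to 50% mapped to a single place. Those unique reads overlapped between the groups, with 23 to 60 in sham and 52 to 81 in ONC samples. In CPM the gap was narrow, with at most 7.40 in sham and at least 7.45 in ONC samples. Intron reads were 65.5 to 78.4% of its reads on the gene, and with intron reads included the log2 fold change was 0.00 after TMM scaling. Intron reads alone, scaled to each library's intron reads, gave 0.25, with the groups overlapping. Junction reads, scaled to each library's junction reads, gave 0.86. The gene overlaps Gm13629, a row with no exon in the tables.

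**Figure D1:**
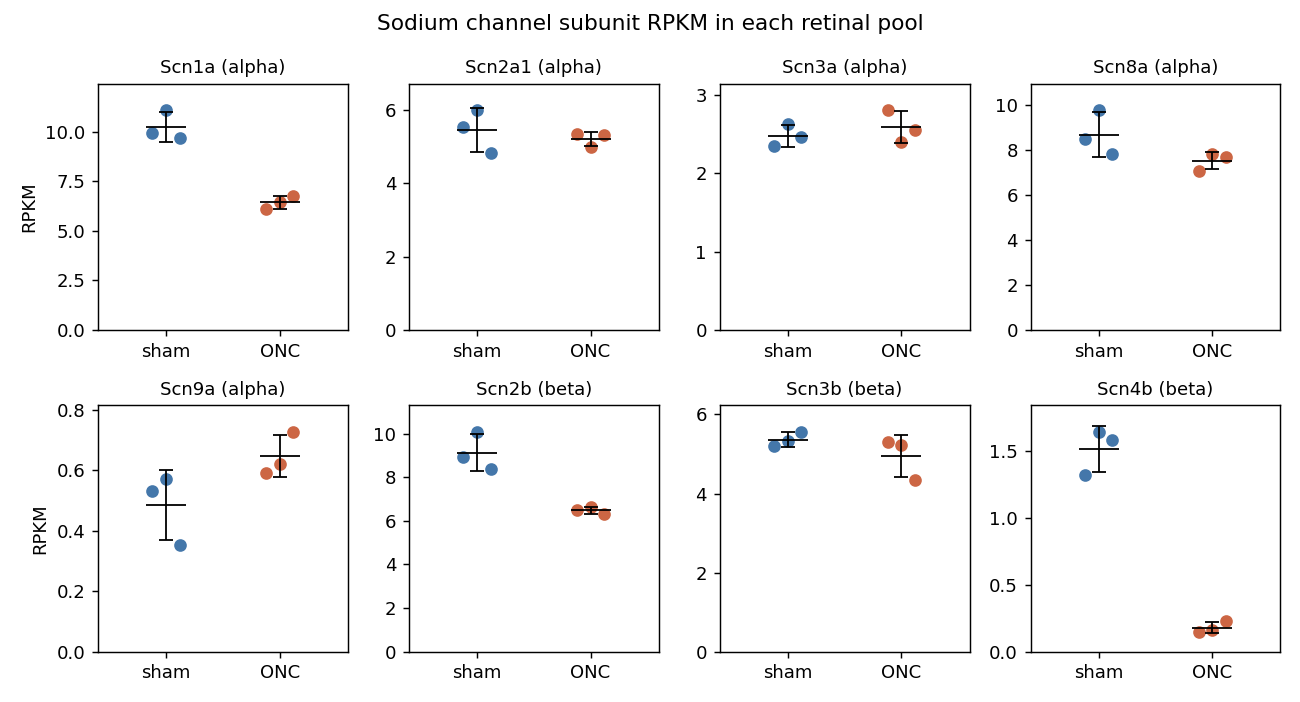
RPKM of the 8 sodium channel subunit genes (y axes, from 0, a separate scale for each gene) in the 3 sham and 3 ONC pools of retina (points), with the group mean (long bar) and SD (capped bar). Scn1a, Scn2b and Scn4b are lower in every ONC pool than in any sham pool, Scn3a overlaps, and Scn9a is higher in every ONC pool.

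Scn4b encodes beta4, and its difference was the largest of the 8. Its RPKM was 1.32, 1.64 and 1.58 in sham and 0.149, 0.161 and 0.227 in ONC samples. These values rested on 129, 167 and 164 exon reads in sham and 16, 17 and 25 in ONC samples, every one of them mapped to a single place. The groups were far apart relative to the spread within either of them. The means were 1.51 ± 0.170 and 0.179 ± 0.042 RPKM (SD, n = 3), and the log2 fold change was -3.20 with a standard error of 0.28, which is 9.16-fold lower in ONC. It was -3.31 without sham sample 1, and over all single samples left out it lay between -3.41 and -3.10. Counted from the lowest fold change, Scn4b had rank 6 among the 13670 genes. With 0.179 RPKM in ONC samples, Scn4b passed the limit of 0.3 through the sham group alone, so the rank is a description. Reads across exon junctions of Scn4b were 12, 26 and 31 in sham and 0, 4 and 8 in ONC samples, and intron reads were 0 in all 6.

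Scn2b encodes beta2, and it was next among the beta members. Its RPKM was 8.92, 10.1 and 8.39 in sham and 6.48, 6.65 and 6.33 in ONC samples. The ONC samples lay close together and below all sham samples, with means of 9.13 ± 0.866 and 6.49 ± 0.161 RPKM (SD, n = 3). The log2 fold change was -0.61 with a standard error of 0.08, 1.53-fold lower in ONC, and -0.66 without sham sample 1. Only 9.27 to 15.9% of its exon reads mapped to a single place, and the level of Scn2b is uncertain for that reason. Those unique reads, 149, 129 and 100 in sham and 86, 70 and 95 in ONC samples, were lower in every ONC sample too, with a log2 fold change of -0.81. The gene overlaps Gm10684, a row with no exon that also reaches into the gap toward Scn4b.

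Scn3b encodes beta3. Its RPKM was 5.19, 5.34 and 5.56 in sham and 5.29, 5.23 and 4.34 in ONC samples. The groups overlapped in RPKM, and in CPM they were apart by a small margin, with 31.5 to 36.9 in sham and 25.0 to 31.2 in ONC samples. The log2 fold change was -0.24 with a standard error of 0.11 (-0.29 without sham sample 1).

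**Figure D2:**
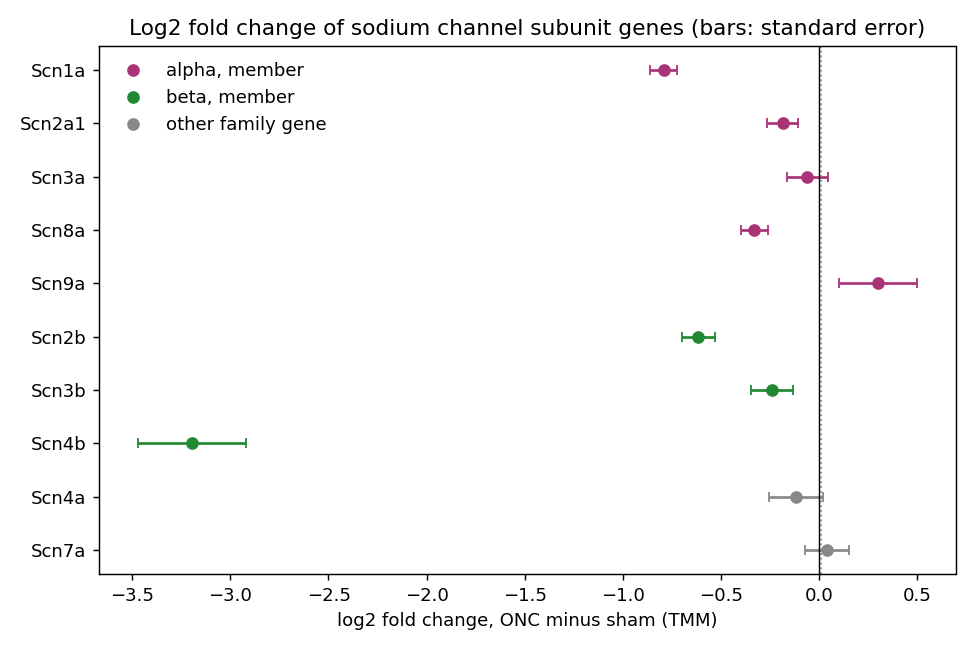
Log2 fold change (ONC minus sham, exon reads after TMM scaling, x axis) of 10 sodium channel subunit genes that had a mean RPKM above 0.3 (y axis). Points are the estimates and bars the standard error, colored by alpha member, beta member or other gene of the family, with a dotted line at the median of all genes (0.01). Scn4b at -3.20 lies far to the left of the others, which span -0.79 to 0.30.

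As a count, 6 of the 8 members had all 3 ONC values below all 3 sham values in CPM, and 1 had all above, beside 10.8% and 11% of all 13670 genes. In the edgeR quasi-likelihood fit across all genes, 508 genes (3.72%) were lower and 325 (2.38%) higher in ONC at a Benjamini-Hochberg adjusted p under 0.1, 6.09% in either direction. With scaling by all reads on genes the split was 223 lower and 1507 higher. With TMM 4 members (Scn1a, Scn8a, Scn2b and Scn4b) were called lower and 0 higher, and with the other scaling 3, without Scn8a. Without ONC replicate 1 the count was 6, with Scn2a1 and Scn3b added. These counts describe values that were known when the members were picked, so the calls are a description and not a test of the members.

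The alpha and beta members were then set side by side. The median log2 fold change was -0.18 over the 5 alpha members and -0.61 over the 3 beta members. The beta median is the value of Scn2b, whose exon reads mostly map to several places. The beta members ran from -3.20 (Scn4b) to -0.24 (Scn3b) and the alpha members from -0.79 to 0.30, so Scn3b lay within the alpha range. The summed RPKM of the alpha members was 26.8, 30.1 and 25.1 in sham and 21.9, 22.3 and 23.0 in ONC samples, and that of the beta members was 15.4, 17.1 and 15.5 in sham and 11.9, 12.0 and 10.9 in ONC samples. Both sums were lower in every ONC sample, but not every member was. Of the alpha members only Scn1a was clearly lower in RPKM, with means of 10.2 in sham and 6.44 in ONC samples. Scn8a was lower by a hair's breadth, Scn2a1 and Scn3a overlapped between the groups, and Scn9a was higher. Of the beta members, Scn3b overlapped. Their ratio, beta over alpha, was 0.575, 0.568 and 0.619 in sham and 0.544, 0.541 and 0.473 in ONC samples, without overlap and with a narrow gap between the groups. In unique reads per kilobase the ratio was 0.275 to 0.324 in sham and 0.238 to 0.288 in ONC samples, and the groups overlapped. The ratio covers the members alone and not every subunit gene of the family.

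In the make-up of each class, the shares of Scn1a and Scn4b were lower and those of Scn2a1, Scn3a, Scn9a and Scn3b higher in every ONC sample. The shares of a class add up to a fixed whole, so a lower share of a gene raises the shares of the others. In CPM, Scn2a1 and Scn3b were lower in every ONC sample and Scn3a overlapped, so the higher shares of these genes are not higher levels. Scn1a made up 37.5 ± 0.880% of the summed alpha RPKM in sham and 28.7 ± 0.841% in ONC samples (SD, n = 3). The share of Scn2a1 was 19.9 ± 0.737% and 23.3 ± 1.03%, that of Scn3a 9.09 ± 0.631% and 11.6 ± 1.095%, and that of Scn8a, which overlapped between the groups, 31.7 ± 0.722% and 33.5 ± 1.37%. The ratio of Scn1a to Scn8a, 1.14 to 1.24 in sham and 0.830 to 0.882 in ONC samples, stood on opposite sides of 1, so that Scn8a was the most abundant alpha member in every ONC sample. The ratio of Scn1a to Scn2a1 was 1.79 to 2.01 in sham and 1.14 to 1.297 in ONC samples. Among the beta members, Scn4b made up 9.45 ± 0.813% of the sum in sham and 1.56 ± 0.458% in ONC samples. Scn3b took 33.6 ± 2.26% and 42.6 ± 2.40%, while the share of Scn2b overlapped between the groups. The beta shares rest on Scn2b reads that mostly map to several places. In unique reads per kilobase, Scn4b made up 16.7 to 20.1% in sham and 2.41 to 4.23% in ONC samples. These ratios are formed within a sample and do not depend on how samples were scaled.

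**Figure D3:**
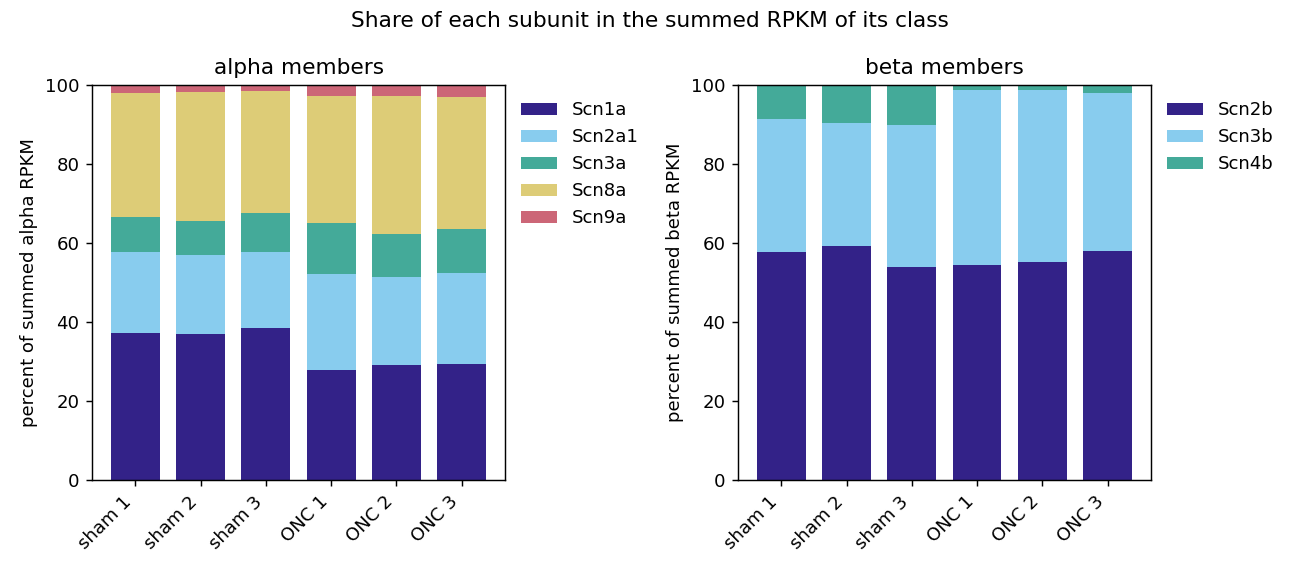
Share of each gene in the summed RPKM of the 5 alpha members (left) and the 3 beta members (right), in percent (y axes, 0 to 100), for each of the 3 sham and 3 ONC pools (bars). The Scn1a share is 36.9 to 38.5% in sham pools and 27.8 to 29.4% in ONC pools, and the Scn4b share is 8.57 to 10.2% in sham pools and 1.25 to 2.08% in ONC pools.

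The order of the levels was compared across genes in RPKM, which is per length, and this order was not used to pick the members. By mean sham RPKM it was Scn1a (10.2), Scn2b (9.13), Scn8a (8.68), Scn2a1 (5.46), Scn3b (5.36), Scn3a (2.48), Scn4b (1.51) and Scn9a (0.485). Of the 7 neighboring pairs, 3 kept their order in all 6 samples: Scn8a above Scn2a1 by 1.51-fold, Scn3b above Scn3a by 2.04-fold and Scn3a above Scn4b by 4.91-fold (geometric means over the 6 samples). The last of these joins unlike groups, with mean RPKM of 2.48 and 1.51 in sham and 2.59 and 0.179 in ONC samples. In a two-sided exact sign-flip permutation test over the 6 samples each of these pairs had p = 0.03125, the smallest this design can give, and an adjusted p of 0.0729 over the 7 pairs, so 0 pairs passed 0.05. The pairs were formed from the sham means, and the same sham values enter the test. So do ONC values that were known when the members were picked. Scn1a and Scn2b (exact p = 0.156) and Scn2a1 and Scn3b (exact p = 0.5) did not differ beyond their spread over the samples. Scn1a was above Scn2b in all 3 sham samples and below it in ONC samples 1 and 2, so part of that spread lies between the groups. The remaining pairs changed places between the groups, so a test over all 6 samples says little about them. Scn2b was above Scn8a in all 3 sham samples and below it in all 3 ONC samples (exact p = 0.344), and Scn4b was above Scn9a in all 3 sham samples and below it in all 3 ONC samples (exact p = 0.875). Counted in unique exon reads per kilobase, 5 pairs had an exact adjusted p of 0.0437, and Scn2b was then 8.93-fold below Scn1a, so its place in the order depends on the reads that map to several places.

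Among other sodium channel subunit genes, Scn4a (Nav1.4, known from skeletal muscle) and Scn7a (the sodium sensor Nax) had log2 fold changes of -0.12 and 0.04. Scn10a and Scn11a, known from pain-sensing neurons, had at most 2 and 7 exon reads in any sample and were below the RPKM limit.

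Genes that anchor, bind or accompany sodium channels were then taken as a list of 34. They were chosen for their roles, but with earlier results of these data known. Of the 34, 9 passed the edgeR test as lower in ONC and 0 as higher, beside 3.72% and 2.38% of all genes. The median log2 fold change of the list was -0.13 against 0.01 for all genes. At an unadjusted p under 0.05, edgeR gave 14 lower and 1 higher, and DESeq2 called 9 lower and 0 higher after adjustment. Directions depended on the scaling. With scaling by all reads on genes the median was -0.01, with 5 genes called lower and 2 higher, Atp1b2 among them, and limma on log2 RPKM plus 0.1 called 3 lower and 1 (Atp1b2) higher. Without ONC replicate 1 the edgeR counts were 20 and 1. Nrcam, Ank3, Fgf13 and Kcnab2 lost their calls both with that scaling and with limma, and Atp1b1 with limma. All 34 were measured above the RPKM limit.

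Of the 10 scaffold and adhesion genes of the initial segment and node, 3 fell. Cntnap1, which encodes the paranodal protein Caspr, had 15.1 ± 0.137 RPKM in sham and 11.8 ± 0.782 in ONC samples (SD, n = 3), a log2 fold change of -0.48 (edgeR adjusted p = 0.000522). Nrcam, a cell adhesion molecule of the node, was at -0.32 (edgeR adjusted p = 0.00403). Ank3 encodes ankyrin-G, the scaffold that recruits sodium channels to the initial segment, and it was at -0.24 (edgeR adjusted p = 0.0819, and 0.115 with the replicate number as a block). Its RPKM, 12.1, 14.01 and 11.7 in sham and 12.6, 10.8 and 11.3 in ONC samples, overlapped between the groups. The call was lost without sham replicate 2 or 3 and without ONC replicate 2 or 3. Spnb4 (beta-IV spectrin, which binds ankyrin-G) and Spna2 (its alpha-II partner) did not pass, with log2 fold changes of -0.17 and -0.08, and nor did Nfasc at -0.13.

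Of the 4 fibroblast growth factor homologous factors, which bind the C-terminal tail of alpha subunits and shift their inactivation, 2 fell. Fgf12 had 18.7, 20.7 and 19.8 RPKM in sham and 13.5, 15.9 and 12.4 in ONC samples. These groups did not overlap, and the log2 fold change was -0.63 (standard error 0.08, edgeR adjusted p = 7.67e-05). Fgf12 was the only gene of the 34 that also changed by more than 1.5-fold. Fgf13 was at -0.29 (edgeR adjusted p = 0.0805, and 0.116 with the block), a call kept only without ONC replicate 1 when single samples were left out. Fgf14 (-0.05) and Fgf11 (-0.03) did not pass.

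Of the 5 potassium channel genes of the initial segment and juxtaparanode, 3 fell. Kcna2 (Kv1.2) had 9.34, 10.5 and 10.3 RPKM in sham and 8.65, 6.93 and 7.33 in ONC samples, a log2 fold change of -0.52 (edgeR adjusted p = 0.000976). Kcnab2, the auxiliary Kv beta2 subunit, was at -0.28 (edgeR adjusted p = 0.0172), a call lost without sham replicate 2. Kcnq3 was at -0.45 with a standard error of 0.27 and did not pass.

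Of the 6 sodium pump genes, whose products restore the sodium gradient, 1 fell. Atp1b1 had 153 ± 9.22 RPKM in sham and 132 ± 7.07 in ONC samples (SD, n = 3), a log2 fold change of -0.33 (edgeR adjusted p = 0.0016). The pump genes did not fall as a group, with 4 log2 fold changes above 0 and 2 below, and a median of 0.035. Of the 6 regulators 0 passed the edgeR test in either direction, and 0 had an unadjusted p under 0.05 with edgeR, DESeq2 or limma, among them Bace1, the protease that cleaves beta subunits (-0.08), and Rest, a repressor of neuronal genes that include sodium channel genes (-0.32, standard error 0.16). Without ONC replicate 1 edgeR called 3 of them lower (Bace1, Nedd4 and Rest). Of the 3 genes of the sodium leak channel 0 passed with edgeR, DESeq2 or limma, while all 3 had an unadjusted p under 0.05 in the edgeR test, with Nalcn at -0.16. Without ONC replicate 1 edgeR called 2 of them lower (Nalcn and Unc79), and with no filter on RPKM 1 (Unc79).

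**Figure D4:**
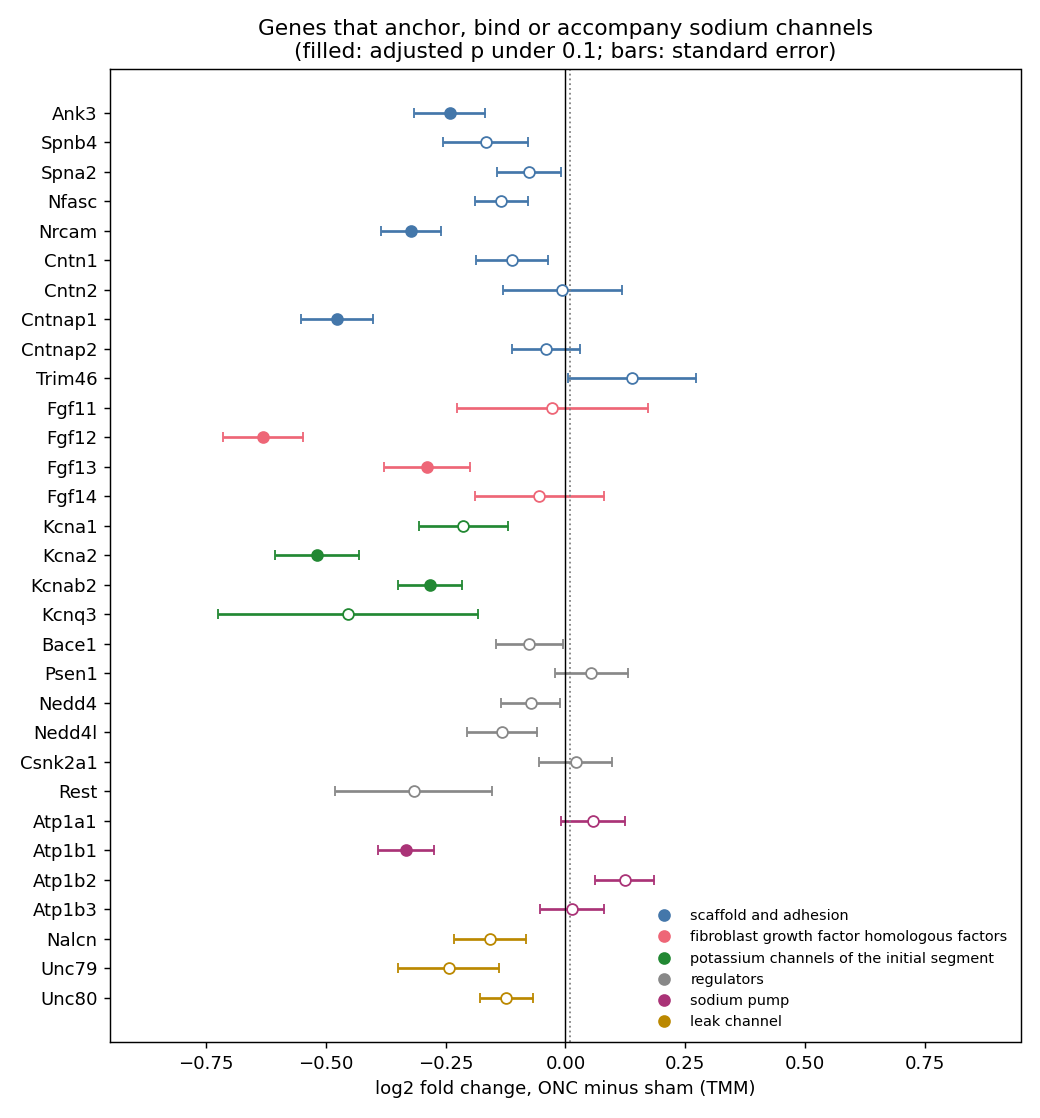
Log2 fold change (ONC minus sham, exon reads after TMM scaling, x axis) of 31 of the 34 genes that anchor, bind or accompany sodium channels (y axis), colored by group, with the standard error as bars. Filled points passed an edgeR adjusted p under 0.1 and all 8 of those shown lie left of 0, from Fgf12 at -0.63 to Ank3 at -0.24.

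Markers of RGCs were lower in the same samples. Of 12 markers 10 passed the edgeR test as lower and 1 (Slc17a6) as higher, and their median log2 fold change was -0.75, beside -0.79 for Scn1a, -0.61 for Scn2b and -3.20 for Scn4b. All 12 were detected. With scaling by all reads on genes 8 were called lower and 1 higher. Slc17a6 lost its call without sham replicate 1 or 2 and without ONC replicate 2 or 3. Among the lower markers, Thy1 lost its call without sham replicate 1 or 3 and without ONC replicate 3. Ebf3 lost its call without sham replicate 2 or 3 and without ONC replicate 2 or 3. Both also lost it with scaling by all reads on genes. Nefh was at -1.29, Tubb3 at -0.75 and Thy1 at -0.22. The part of the RGC markers in the differences of the members and of the 34 genes was not tested. Of 8 amacrine cell markers 1 (Calb2) was lower. The sum of all 8 was 361 to 400 RPKM in sham and 332 to 360 in ONC samples, and without Calb2 it was 168 to 197 and 187 to 216, with the groups overlapping. Of 5 bipolar cell markers and 5 markers of Müller glia and astrocytes 0 passed the edgeR test in either direction, with 1 and 3 at an unadjusted p under 0.05. Limma on log2 RPKM plus 0.1 called 0 and 2 of them (Gfap and Vim, higher), and DESeq2 0 and 1. With edgeR and scaling by all reads on genes Gfap and Vim were called higher as well, and without ONC replicate 1 edgeR called 3 bipolar cell markers lower (Grm6, Prkca and Trpm1), Glul lower, and Gfap and Vim higher. Of 4 rod markers 1 (Pde6b) was higher, and of 5 microglia markers 2 (C1qa and Itgam) were higher. With single samples left out Pde6b kept its call only without ONC replicate 1, and it lost it with the replicate number as a block (edgeR adjusted p = 0.166), as did C1qa (0.108). Without sham replicate 2, ONC replicate 2 or ONC replicate 3, 0 microglia markers were called by edgeR. The summed RPKM of the microglia markers was 8.06 to 10.1 in sham and 12.8 to 15.2 in ONC samples.

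The genes most like Scn1a and Scn4b were looked for among 11976 genes with a mean RPKM above 1 in sham or in ONC samples, by the Euclidean distance between log2 CPM profiles over the 6 samples, centered on the sham mean. The closest to Scn1a were Tubb3, the neuronal beta-tubulin (distance 0.153, log2 fold change -0.75), Cdk14, a cyclin-dependent kinase (0.187, -0.73), and Kcnj5, an inwardly rectifying potassium channel (0.198, -0.80). On the same scale Scn1a itself lay 1.38 from a flat profile at its sham mean. The closest to Scn4b were Arl9, a small GTPase of the ARF-like family (distance 1.77, log2 fold change -2.83), Gm13547 (1.801, -2.48) and Gm6747 (2.33, -1.95). Arl9, with 1.15 RPKM in sham and 0.164 in ONC samples, and Gm13547, with 1.004 and 0.189, passed that limit through the sham group alone. The distances from Scn4b to its closest genes were larger than those from Scn1a, and Scn4b lay 5.54 from a flat profile.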

How the data were processed

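RNA of 3 sham and 3 ONC pools of retina (labelled NC) was sequenced by the authors as TruSeq libraries and mapped with CLC Genomics Workbench 6.0.1, to mm9 per the processing notes. The deposited tables give, per gene, read counts on exons, introns and exon junctions, and RPKM values that the authors computed from exon reads, exon length and all reads on genes. The strand setting of the counting is not given in the sources used here.

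Exon read counts were tested with edgeR 4.0.16 (R 4.3.3; quasi-likelihood test, TMM, condition as the single term) over 13670 genes (average RPKM above 0.3 in the sham or the ONC group), with Benjamini-Hochberg adjustment over all of them. A gene was called at an adjusted p under 0.1. limma 3.58.1 and DESeq2 1.42.0 served as alternatives. Dispersion between pools corresponded to a biological coefficient of variation of 9.17%. The scripts were tested on simulated data. Within groups the counts of any pair of samples differed by more than sampling noise (chi-square per degree of freedom 4.54 to 13.8), so no library was counted as a duplicate.

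The members and all gene lists were chosen with earlier results of these data known. Named were all members, other genes of the family, the partner genes that passed, further partners picked as examples after their values were seen, and the 3 genes nearest to the alpha and the beta member of largest difference. Spnb4 and Spna2 are older symbols of Sptbn4 and Sptan1. Promoter sequences are from RefSeq (GRCm38.p6). A column of ONC means in 1 table was not used. Some genes of the lists are counted but not reported here by name.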

Additional observations from a re-analysis of the deposited data

How the results depend on the processing

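The direction of all 8 members' fold changes held under every alternative except for Scn3a, which was -0.06 in the fit as reported and 0.06 with scaling by all reads on genes, 0.10 in junction reads and -0.14 to 0.00 with single samples left out, its sign also being positive with limma, and for Scn3b in intron reads (0.46, from 22 to 50 reads a sample). Intron and junction reads, the shares in unique reads and the amacrine sum without Calb2 were added after seeing the data. The median of the alpha members, -0.18, was -0.065 with scaling by all reads on genes and -0.059 and -0.051 with limma on log2 RPKM plus 0.1 and plus 1. The median of the beta members, -0.61, was -0.49 with that scaling, -0.48 and -0.43 with limma and -0.81 in unique reads. Scn4b was at -2.54 and -1.09 with limma, since a pseudocount understates the change of a low gene. The alpha median could not be had with genes above 1 RPKM, because Scn9a was then left out. The count of all genes called, 833, was 1730 with scaling by all reads on genes, 515 at an adjusted p under 0.05, and 371 to 2031 with single samples left out. It was 2031 without ONC replicate 1, 371 and 400 without sham replicates 2 and 3, and 435 and 452 without ONC replicates 2 and 3. The partner genes called, 9, were 4 with either limma fit (3 lower and 1 higher) and 6 to 21 with single samples left out, 21 without ONC replicate 1. The pairs of levels that differed were 5 in unique reads and 0 as reported. The cause of these changes was not tested. Samples with the same number did not deviate together over all genes (correlations of -0.05, -0.04 and -0.02). The labels do not pair the samples, and these correlations cannot show whether same-numbered pools were handled together. With a replicate block 728 genes and 7 partner genes were called. The low depth of Scn4b in ONC samples (16 to 25 reads) and of Scn9a limits the precision of both.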
